A study of Mus musculus with 9 samples.

Results

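Matrix proteases and their inhibitors were examined in myotubes of C2C12, a line of mouse myoblasts that fuse into multinucleated muscle fibres in culture. The set comprised 43 of the 10716 genes in the deposited expression table. A gene belonged to it when its symbol was Adam, Adamts, Adamtsl, Mmp or Timp followed by a number, or began with Serpin, and Serpinh1, which encodes a collagen chaperone, was left out. The set held 7 ADAM, 8 ADAMTS, 4 ADAMTS-like, 6 MMP, 3 TIMP and 15 serpin genes. The mouse annotation lists 146 such symbols, and those without a row were not analysed here.

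In 1 group myotubes were given both dexamethasone (50 µM) and THSG (10 µM), in another dexamethasone (50 µM) without THSG, and in the third vehicle, in each case for 24 h. Each group had 3 libraries. Dexamethasone, a synthetic glucocorticoid, is a common means of making cultured muscle cells waste, and THSG is not spelled out in the labels. No group received THSG alone, and the labels do not say whether replicates came from separate cultures, so p-values measure only the spread between these libraries. The titles, all of which name C2C12, were followed where the field for the cell line gives a different number in each sample.

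Matrix metalloproteinases (MMPs) are zinc proteases that are secreted or anchored in the cell membrane and cleave collagens and other matrix proteins. ADAMs are membrane proteases that shed the outer parts of surface proteins, and ADAMTS proteases are their secreted relatives, which cut proteoglycans, procollagens and microfibril proteins. TIMPs block the active site of MMPs and of some ADAM and ADAMTS proteases. Serpins are inhibitors that trap mainly serine proteases, among them the plasminogen activators, some outside and some inside the cell.

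Values are taken to be FPKM, fragments scaled to transcript length and library size, and all exceeded 1 FPKM in the deposited table. Counts over the set therefore cover genes that stayed above that level in every library, and a gene that fell below it in any library could not be seen. Read depth is unknown, and library sums ranged between 400218 and 422379 FPKM. Mitochondrially encoded genes took 14.0% of the sum in dexamethasone replicate 3 and 10.54% to 11.95% in the other 8 libraries. Log2 fold changes are differences of log2(FPKM + 0.1) between group means, tested two-sided with limma. A gene is said to have risen or fallen when its p-value, adjusted over all 10716 genes by the Benjamini-Hochberg method, was under 0.05.

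The label of the cells was checked against 10 myotube markers, all of which were in the table. Their summed level was 6473 to 6661 FPKM with dexamethasone plus THSG, 6062 to 6563 FPKM with dexamethasone and 5537 to 6009 FPKM with vehicle. Marker counts given here stand beside those of all genes, of which 33.6% changed with dexamethasone, 12.7% higher and 20.9% lower. With dexamethasone 6 of the 10 myotube markers rose and 0 fell. The myosin genes Myh8 (log2 fold change 1.06) and Myh1 (0.77) were among those that rose. Acta1, the largest part of the sum, was not called (0.04, adjusted p = 0.753). No macrophage, endothelial or adipocyte marker on the lists used, 0 of 6, 0 of 5 and 0 of 5, had a row. Of 9 fibroblast markers, 6 were present, and their summed level was 254.3 to 258.5 FPKM with dexamethasone plus THSG, 248.5 to 251.1 FPKM with dexamethasone and 483.3 to 509.4 FPKM with vehicle. With dexamethasone 4 of the 6 fell (Col1a1, Col1a2, Pdgfrb and Dcn) and 1 rose (Pdgfra). Fibroblast markers thus differed, in both directions, between groups that are compared below. Col1a1, Col1a2 and Dcn are also counted among the matrix substrates below, so those counts share genes. Thy1, Lum and Postn were not found under these symbols. Of 6 markers of myoblasts and reserve cells, 5 were present, and their summed level was 162.4 to 174.8 FPKM with dexamethasone plus THSG, 149.4 to 163.5 FPKM with dexamethasone and 154.2 to 176.8 FPKM with vehicle. These sums overlapped, but all 5 genes changed with dexamethasone: Myf5 (1.05) and Id3 (0.81) rose, and Pax7 (-0.64), Cdh15 (-0.26) and Heyl (-0.44) fell. Cdh15 is also counted among the ADAM substrates below. The part of the myotube, fibroblast and myoblast markers in the results was not tested. In such bulk samples fewer cells of a type and less RNA per cell cannot be told apart.

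Dexamethasone against vehicle was the comparison that asked how the glucocorticoid altered these genes. The TIMP genes Timp1 and Timp3 fell strongly, and the proteoglycan-cutting proteases Adamts4 and Adamts1 moved apart, Adamts4 down and Adamts1 up. Among the membrane-bound and secreted MMPs, Mmp14 fell and Mmp2 rose by smaller amounts. Of the 43 genes, 26 changed (60.5%), 12 higher and 14 lower, where 33.6% of all genes in the table changed, 12.7% higher and 20.9% lower. By family the share called was 57.1% of the ADAM, 75.0% of the ADAMTS, 50.0% of the ADAMTS-like, 83.3% of the MMP, 66.7% of the TIMP and 46.7% of the serpin genes, in families of 3 to 15 genes. Changes of at least 2-fold were found in 5 of them, with Adamts1 higher and Timp3, Adamts4, Timp1 and Adamtsl1 lower. Over all 10716 genes, 131 were called higher and 179 lower by at least 2-fold. The median log2 fold change was -0.03 over the set and -0.05 over all genes, and the median of its absolute size was 0.32 over the set and 0.16 over all genes. Values of dexamethasone and vehicle libraries were separate, without overlap, for 31 of the 43 genes (72.1%), and for 45.9% of all genes. Of all called genes 37.8% were higher, against 49.6% under median-ratio scaling and 50.5% under quantile normalization, while the set then had 13 higher and 12 lower, or 13 higher and 11 lower.

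**Figure D1:**
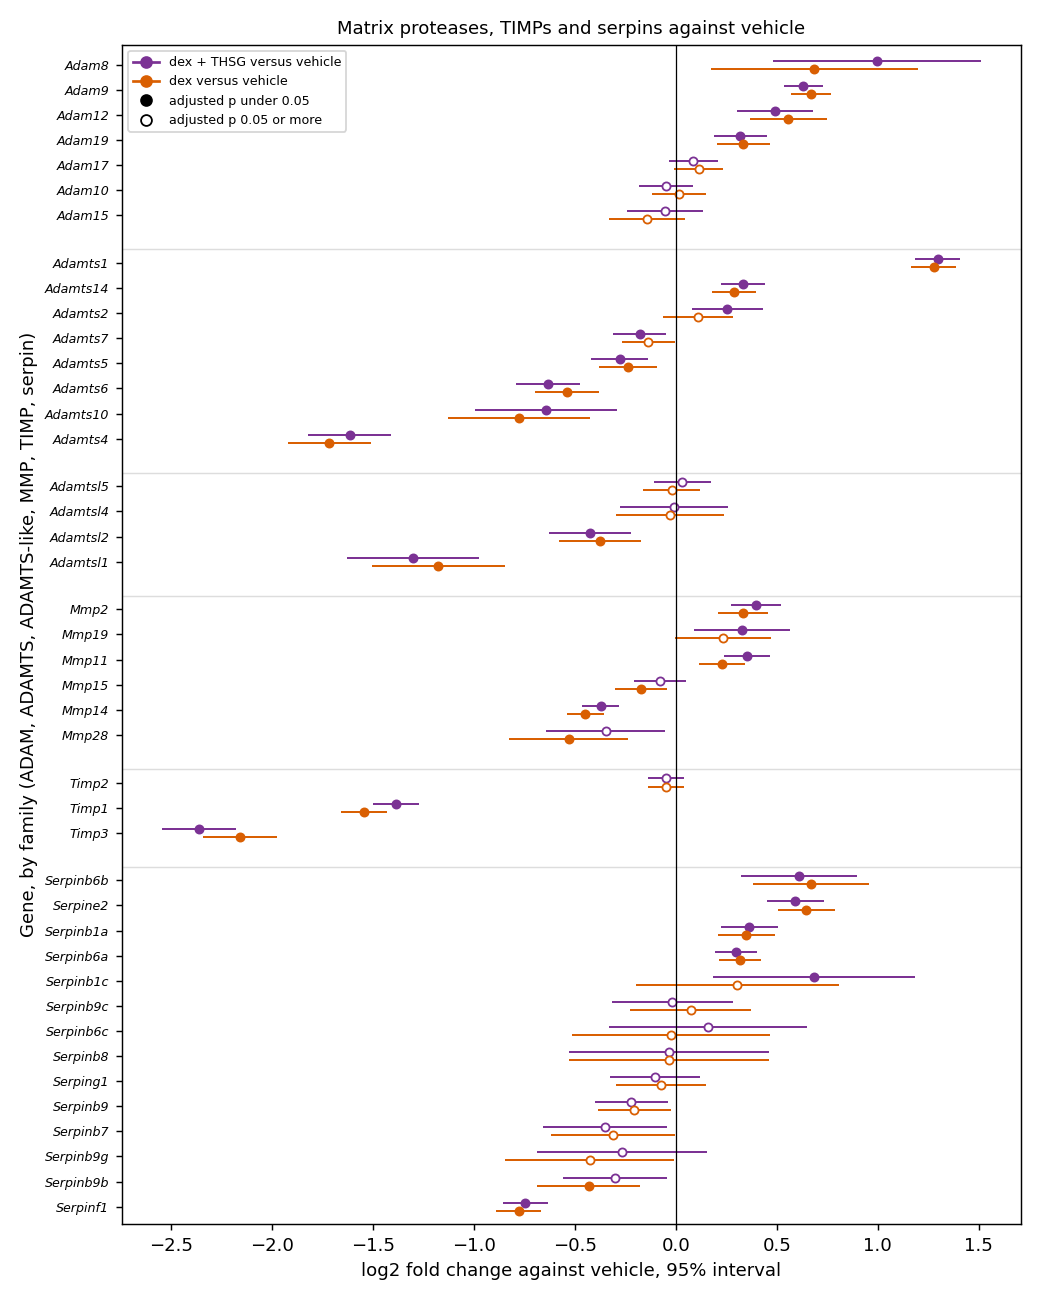
Log2 fold change of 42 of the 43 genes against vehicle (horizontal axis, points with 95% intervals), for dexamethasone plus THSG (purple) and dexamethasone (orange), which share the vehicle libraries; filled points have an adjusted p under 0.05. Points lie on both sides of 0, from Timp3 at -2.36 and -2.16 to Adamts1 at 1.30 and 1.28.

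MMP genes moved modestly, and in both directions. Of 6 genes, 2 rose (33.3%) and 3 fell (50.0%) with dexamethasone, where 12.7% of all genes rose and 20.9% fell. The median log2 fold change of the family was 0.03. Mmp14 encodes a membrane-anchored collagenase that, together with TIMP-2, activates the proenzyme of MMP-2. Mmp14 stood at 199, 206 and 192 FPKM with dexamethasone plus THSG, at 189.9, 191 and 186 FPKM with dexamethasone, and at 262, 255 and 256 FPKM with vehicle. All 6 libraries with dexamethasone lay below all vehicle libraries, and dexamethasone lowered the gene by a log2 fold change of -0.45 (standard error 0.0401, adjusted p = 5.01e-06). Mmp2, gelatinase A, had 225, 218 and 200.5 FPKM with dexamethasone plus THSG, 215, 205 and 195 FPKM with dexamethasone, and 167, 157 and 164 FPKM with vehicle. Here the vehicle libraries were the lowest, without overlap, and the log2 fold change was 0.33 (standard error 0.054, adjusted p = 0.000562). The ratio of Mmp2 to Mmp14 FPKM was thus 1.08 ± 0.048 with dexamethasone plus THSG, 1.08 ± 0.043 with dexamethasone and 0.632 ± 0.013 with vehicle (SD, n = 3 each). Together they made up 83.8% ± 0.81 of the summed MMP FPKM with dexamethasone plus THSG, 84.2% ± 0.39 with dexamethasone and 85.6% ± 0.40 with vehicle.

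Mmp11, stromelysin-3, had 42.8, 44.8 and 43.7 FPKM with dexamethasone plus THSG, 40.0, 41.5 and 38.9 FPKM with dexamethasone, and 35.8, 34.4 and 32.5 FPKM with vehicle. Its groups did not overlap, and it rose with dexamethasone by a log2 fold change of 0.23 (standard error 0.0497, adjusted p = 0.00395). Mmp28, epilysin, was low throughout, at 3.01, 2.83 and 3.08 FPKM with dexamethasone plus THSG, 2.52, 3.01 and 2.33 FPKM with dexamethasone, and 3.27, 4.19 and 4.03 FPKM with vehicle. Dexamethasone lowered it by a log2 fold change of -0.53 (standard error 0.133, adjusted p = 0.00918), and each dexamethasone library lay under each vehicle library. Mmp15, another membrane-anchored MMP, was measured at 23.8, 24.5 and 23.3 FPKM with dexamethasone plus THSG, 22.3, 23.3 and 21.4 FPKM with dexamethasone, and 26.8, 24.2 and 24.6 FPKM with vehicle. Its fall of -0.17 on the log2 scale (adjusted p = 0.0368) lost its call without vehicle replicate 1 (-0.13), vehicle replicate 3 (-0.19), dexamethasone replicate 1 (-0.17) or dexamethasone replicate 3 (-0.14), and with median-ratio scaling (-0.12) or quantile normalization (-0.13). The call was also lost when the fit had no intensity trend or held only the 2 groups compared. Mmp19 averaged 9.33 ± 1.4 FPKM with dexamethasone plus THSG, 8.66 ± 0.18 FPKM with dexamethasone and 7.37 ± 0.63 FPKM with vehicle, and was not called for dexamethasone (log2 fold change 0.23, adjusted p = 0.112).

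Of the 3 TIMP genes, 2 fell with dexamethasone (66.7%) and 0 rose, where 20.9% of all genes fell and 12.7% rose. Timp3 encodes an inhibitor that binds to the matrix and blocks ADAM17 and ADAMTS proteases as well as MMPs. Timp3 was found at 9.70, 10.1 and 9.77 FPKM with dexamethasone plus THSG, at 11.6, 10.6 and 12.1 FPKM with dexamethasone, and at 45.1, 55.9 and 53.0 FPKM with vehicle. Every library with dexamethasone lay below the vehicle libraries, and the log2 fold change for dexamethasone was -2.16 (standard error 0.0812, adjusted p = 3.32e-09), a fold of 0.224. Timp1, a soluble inhibitor of most MMPs, had 99.4, 94.6 and 99.0 FPKM with dexamethasone plus THSG, 85.2, 87.0 and 90.7 FPKM with dexamethasone, and 257, 269.8 and 240.0 FPKM with vehicle. It too separated the vehicle libraries from the rest, with a log2 fold change of -1.54 (standard error 0.0496, adjusted p = 8.33e-10), a fold of 0.343. Timp2, the partner of Mmp14 in activating MMP-2, had the highest FPKM of the set and stood at 514, 519 and 512 FPKM with dexamethasone plus THSG, 514, 511 and 521 FPKM with dexamethasone, and 525, 537 and 537 FPKM with vehicle. Its dexamethasone libraries all lay below its vehicle libraries, but by a log2 fold change of only -0.05 (95% interval -0.13 to 0.04, adjusted p = 0.374), which was not called.

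Summed over the 3 genes, TIMP levels were 622.7 ± 1.6 FPKM with dexamethasone plus THSG, 614.3 ± 8.2 FPKM with dexamethasone and 839.6 ± 20 FPKM with vehicle (SD, n = 3 each). Timp2 accounted for 82.7% ± 0.42, 83.9% ± 0.33 and 63.4% ± 1.2 of these sums in the same order of groups. The summed MMP level was 493.5 ± 17 FPKM with dexamethasone plus THSG, 467.5 ± 14 FPKM with dexamethasone and 490.8 ± 11 FPKM with vehicle, so that the ratio of summed TIMP to summed MMP was 1.26 ± 0.042, 1.31 ± 0.057 and 1.71 ± 0.071. The libraries with dexamethasone reached at most 1.38 and the vehicle libraries had at least 1.65. These are ratios of RNA levels, described without a test.

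**Figure D2:**
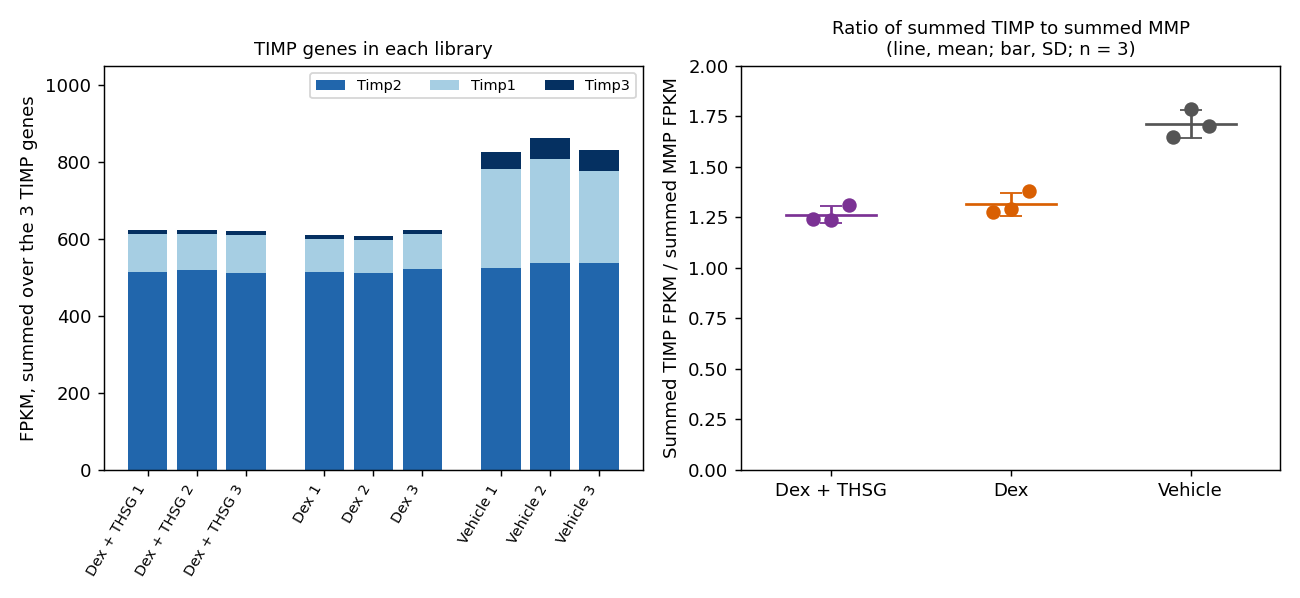
Left, FPKM of Timp2, Timp1 and Timp3 stacked for each library; right, the ratio of summed TIMP to summed MMP FPKM per library (points) with the mean and SD of each group (n = 3). The Timp2 segment is of like height in all 9 libraries (511 to 537 FPKM), and the ratio is 1.24 to 1.38 in the 6 libraries with dexamethasone and 1.65 to 1.79 in the vehicle libraries.

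Timp1 and Timp3 both lie within genes of the synapsin family on the opposite strand. Syn1, which spans Timp1 without sharing exons with it, averaged 4.96 ± 0.57 FPKM with dexamethasone plus THSG, 4.39 ± 0.19 FPKM with dexamethasone and 4.995 ± 0.15 FPKM with vehicle, and was not called (log2 fold change -0.18, adjusted p = 0.196). Syn3, whose annotated exons overlap those of Timp3, had no row. The library kit marks strand, but the strand setting used for counting is not stated.

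Promoter sequences of RefSeq (build GRCm38.p6, from 250 bases before to 50 after the start) were available for 30 of the 43 genes. They are shown for Adamts1, the gene of the set with the largest rise, and for both TIMP genes that fell, so that their starts can be compared. Capitals mark the matches described after them, and the sequences run 5′ to 3′ on the gene's strand.
Adamts1 (chr16:85803064-85803363, minus strand): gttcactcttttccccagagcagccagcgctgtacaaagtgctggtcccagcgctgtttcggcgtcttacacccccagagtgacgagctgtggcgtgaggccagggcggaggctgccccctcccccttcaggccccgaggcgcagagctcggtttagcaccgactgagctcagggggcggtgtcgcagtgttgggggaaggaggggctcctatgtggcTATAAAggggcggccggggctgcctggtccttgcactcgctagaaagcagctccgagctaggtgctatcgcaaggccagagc
Timp1 (chrX:20869916-20870215, plus strand): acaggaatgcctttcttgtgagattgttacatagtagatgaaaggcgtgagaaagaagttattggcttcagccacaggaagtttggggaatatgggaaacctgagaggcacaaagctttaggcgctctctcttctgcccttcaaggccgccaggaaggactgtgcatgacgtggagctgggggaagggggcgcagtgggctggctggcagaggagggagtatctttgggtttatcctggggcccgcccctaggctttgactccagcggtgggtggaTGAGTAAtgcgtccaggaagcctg
Timp3 (chr10:86300162-86300461, plus strand): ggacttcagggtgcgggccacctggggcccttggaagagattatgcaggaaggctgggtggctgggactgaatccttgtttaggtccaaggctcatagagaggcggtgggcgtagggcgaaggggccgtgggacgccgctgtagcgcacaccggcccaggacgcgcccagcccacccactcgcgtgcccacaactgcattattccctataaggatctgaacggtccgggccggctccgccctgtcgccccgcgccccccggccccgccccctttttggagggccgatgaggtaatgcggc

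Motifs were searched on both strands of these windows. The letters AGAACA, which form 1 arm of the glucocorticoid response element, was in the windows of 4 of the 30 genes (13.3%) and of 21.3% of all genes with such windows. The full palindromic element was found for 0 of the 30, and for 0.0111% of all genes. The AP-1 motif TGANTCA was found for 3 of the 30 (10.0%) and for 8.97% of all genes. None of these 3 motifs was in the windows printed above. After the sequences were seen, TATAAA and TGAGTAA, a variant AP-1 motif, were added. TATAAA began 32 bases before the start of Adamts1 and occurred for 5 of the 30 genes (16.7%) and 15.7% of all, while TGAGTAA began 26 bases after the start of Timp1 and occurred for 1 of the 30 (3.33%) and 3.09% of all. Shares in the set were thus near or below those of all genes, and a match or its lack in this window says nothing of binding elsewhere.

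The ADAMTS proteases were the family that spread most widely. With dexamethasone 2 of 8 genes rose and 4 fell. Adamts1, which cleaves versican and aggrecan, had 36.7, 37.2 and 39.0 FPKM with dexamethasone plus THSG, 35.9, 38.6 and 36.7 FPKM with dexamethasone, and 15.3, 15.1 and 15.3 FPKM with vehicle. The vehicle libraries lay close together and far below the rest, and the log2 fold change was 1.28 (standard error 0.049, adjusted p = 3.93e-09), or 2.42-fold. Adamts4, a protease of the same proteoglycans, showed the opposite order, with 7.76, 7.48 and 7.48 FPKM with dexamethasone plus THSG, 8.05, 6.14 and 7.09 FPKM with dexamethasone, and 24.5, 22.4 and 23.3 FPKM with vehicle. It fell by a log2 fold change of -1.72 (standard error 0.091, adjusted p = 6.22e-08). The ratio of Adamts1 to Adamts4 FPKM was 4.97 ± 0.24 with dexamethasone plus THSG, 5.31 ± 0.92 with dexamethasone and 0.652 ± 0.026 with vehicle (SD, n = 3 each). Adamts5, a further aggrecanase, is the direct neighbour of Adamts1 on chromosome 16 in the annotation, on the same strand and with 0 protein-coding genes between them. It averaged 10.5 ± 0.22 FPKM with dexamethasone plus THSG, 10.8 ± 0.31 FPKM with dexamethasone and 12.8 ± 0.54 FPKM with vehicle. Its log2 fold change of -0.24 (adjusted p = 0.0131) was no longer called with quantile normalization (-0.17, adjusted p = 0.0525).

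Adamts6 and Adamts10, a related pair that acts on fibrillin microfibrils, both fell. Adamts6 was measured at 10.3, 9.41 and 9.77 FPKM with dexamethasone plus THSG, 9.78, 10.5 and 11.2 FPKM with dexamethasone, and 15.1, 14.9 and 15.7 FPKM with vehicle. Its 6 libraries with dexamethasone were all below vehicle, with a log2 fold change of -0.54 (standard error 0.0704, adjusted p = 0.000111). Adamts10 was low, at 2.20, 2.59 and 1.94 FPKM with dexamethasone plus THSG, 1.96, 2.37 and 1.77 FPKM with dexamethasone, and 4.08, 3.08 and 3.50 FPKM with vehicle. Its libraries with dexamethasone again lay below vehicle, at a log2 fold change of -0.78 (standard error 0.158, adjusted p = 0.00262). Of the procollagen N-proteinases, Adamts14 had 43.5, 46.5 and 45.3 FPKM with dexamethasone plus THSG, 44.2, 45.3 and 41.7 FPKM with dexamethasone, and 35.8, 35.1 and 36.3 FPKM with vehicle. It rose with dexamethasone by a log2 fold change of 0.29 (standard error 0.048, adjusted p = 0.000669), without overlap. Adamts2, the other procollagen N-proteinase in the table, averaged 14.1 ± 0.29 FPKM with dexamethasone plus THSG, 12.7 ± 1.1 FPKM with dexamethasone and 11.8 ± 0.87 FPKM with vehicle, and was not called for dexamethasone (log2 fold change 0.11, adjusted p = 0.303). Adamts7, a protease of cartilage oligomeric matrix protein, had 25.7 ± 1.2, 26.4 ± 0.53 and 29.1 ± 1.7 FPKM in the same order of groups (log2 fold change -0.14 for dexamethasone, adjusted p = 0.0903).

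ADAMTS-like proteins share the ancillary domains of these proteases but have no protease domain, and several bind fibrillin. Of 4 genes, 2 fell (50.0%) and 0 rose with dexamethasone, where 20.9% of all genes fell and 12.7% rose. Adamtsl1 had 3.17, 3.34 and 4.29 FPKM with dexamethasone plus THSG, 3.53, 3.71 and 4.54 FPKM with dexamethasone, and 7.53, 9.84 and 9.65 FPKM with vehicle. It fell by a log2 fold change of -1.17 (standard error 0.147, adjusted p = 8.1e-05), and no library with dexamethasone reached the vehicle range. Adamtsl2, a fibrillin-binding protein gene, stood at 7.96, 9.26 and 8.84 FPKM with dexamethasone plus THSG, 8.02, 9.63 and 9.35 FPKM with dexamethasone, and 11.999, 10.96 and 12.1 FPKM with vehicle. The fall was smaller, at -0.38 on the log2 scale (standard error 0.09, adjusted p = 0.00716), but again without overlap. Adamtsl5 had the highest FPKM of the family, with 87.6, 93.8 and 91.7 FPKM with dexamethasone plus THSG, 90.8, 92.002 and 80.8 FPKM with dexamethasone, and 93.0, 82.4 and 91.8 FPKM with vehicle. Its groups overlapped, and the log2 fold change was -0.02 (95% interval -0.16 to 0.12). Adamtsl4, which has a known role in the fibrillin fibres of the eye, had 5.75, 7.55 and 6.59 FPKM with dexamethasone plus THSG, 6.38, 7.504 and 5.71 FPKM with dexamethasone, and 6.53, 6.38 and 6.97 FPKM with vehicle, also with overlap (-0.03, 95% interval -0.29 to 0.23).

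**Figure D3:**
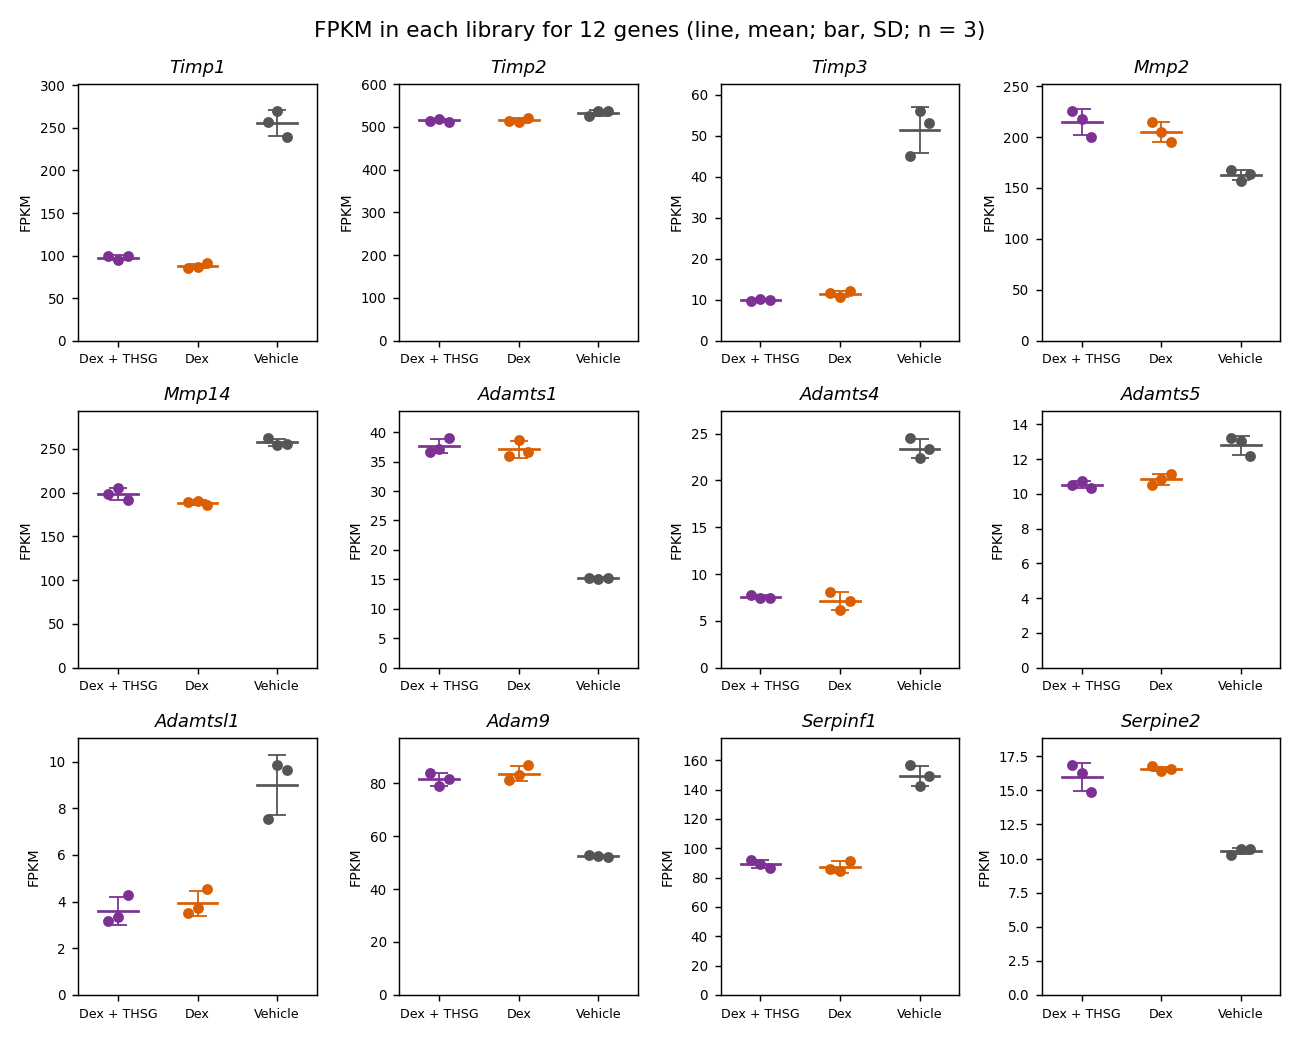
FPKM of 12 genes in each library (points), with group means (lines) and SD (bars, n = 3), for dexamethasone plus THSG, dexamethasone and vehicle. Adamts1 lies near 37 FPKM in both groups with dexamethasone and near 15 FPKM with vehicle, whereas Adamts4, Timp1, Timp3, Adamtsl1 and Serpinf1 are highest with vehicle.

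Of the ADAM genes, 4 of 7 rose with dexamethasone (57.1%) and 0 fell, where 12.7% of all genes rose and 20.9% fell. The median log2 fold change of the family was 0.34. The 3 genes of the meltrin group, Adam9, Adam12 and Adam19, were among those that rose. Adam9, a widely expressed sheddase, had 83.8, 78.9 and 81.8 FPKM with dexamethasone plus THSG, 81.2, 83.0 and 86.7 FPKM with dexamethasone, and 53.0, 52.6 and 52.0 FPKM with vehicle. Its 6 libraries with dexamethasone were all higher than vehicle, and its log2 fold change was 0.67 (standard error 0.0424, adjusted p = 2.87e-07). Adam12, known from work on myoblast fusion, was found at 5.50, 5.55 and 5.60 FPKM with dexamethasone plus THSG, 5.66, 5.72 and 6.08 FPKM with dexamethasone, and 3.72, 4.04 and 4.01 FPKM with vehicle. It likewise rose without overlap, at 0.56 on the log2 scale (standard error 0.0841, adjusted p = 0.000329). Adam19, a sheddase of neuregulins, had 22.2, 23.6 and 21.3 FPKM with dexamethasone plus THSG, 22.6, 23.2 and 22.0 FPKM with dexamethasone, and 17.3, 18.8 and 17.6 FPKM with vehicle. It rose by a log2 fold change of 0.34 (standard error 0.0582, adjusted p = 0.000916), again without overlap.

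Adam8, best known from leukocytes, was low, at 3.74, 3.42 and 3.31 FPKM with dexamethasone plus THSG, 3.72, 3.26 and 1.78 FPKM with dexamethasone, and 1.39, 1.99 and 1.76 FPKM with vehicle. Dexamethasone replicate 3, whose mitochondrial share was 14.0%, lay within the vehicle range, while the other 5 libraries with dexamethasone did not. The log2 fold change of 0.69 (adjusted p = 0.0398) became 1.00 without that library (adjusted p = 0.00101). The call was lost without dexamethasone replicate 1 (0.48), dexamethasone replicate 2 (0.58), vehicle replicate 1 (0.55) or vehicle replicate 3 (0.71). It was also lost when the fit had no intensity trend or held only the 2 groups compared. The other 3 ADAM genes were not called. Adam17, which releases tumour necrosis factor, had 22.4, 21.8 and 22.6 FPKM with dexamethasone plus THSG, 21.5, 23.3 and 23.2 FPKM with dexamethasone, and 20.2, 21.3 and 21.3 FPKM with vehicle, a log2 fold change of 0.11 for dexamethasone (adjusted p = 0.119). Adam10, a sheddase of Notch receptors and cadherins, averaged 23.7 ± 0.63 FPKM with dexamethasone plus THSG, 24.9 ± 1.6 FPKM with dexamethasone and 24.6 ± 0.82 FPKM with vehicle (0.02, 95% interval -0.11 to 0.14). Adam15 averaged 15.5 ± 0.46, 14.5 ± 1.3 and 16.1 ± 1.6 FPKM in the same order of groups (-0.14, 95% interval -0.33 to 0.04).

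Serpins were split by gene. Of 15 genes, 4 rose (26.7%) and 3 fell (20.0%) with dexamethasone, where 12.7% of all genes rose and 20.9% fell, so the share that fell was near that of all genes. The median log2 fold change was -0.03. Among the secreted ones, Serpinf1 encodes pigment epithelium-derived factor, an antiangiogenic serpin that does not inhibit proteases. Serpinf1 had 91.8, 88.9 and 86.7 FPKM with dexamethasone plus THSG, 85.6, 84.4 and 91.5 FPKM with dexamethasone, and 156, 143 and 149 FPKM with vehicle. Its libraries with dexamethasone were all below vehicle, and it fell by a log2 fold change of -0.78 (standard error 0.0487, adjusted p = 2.64e-07). Serpine2, which encodes protease nexin, an inhibitor of thrombin and of plasminogen activators, stood at 16.8, 16.3 and 14.9 FPKM with dexamethasone plus THSG, 16.8, 16.4 and 16.6 FPKM with dexamethasone, and 10.3, 10.7 and 10.7 FPKM with vehicle. It rose without overlap, by a log2 fold change of 0.65 (standard error 0.0623, adjusted p = 9.08e-06). Serping1, the inhibitor of the first complement component, averaged 16.7 ± 2.7, 17.0 ± 1.3 and 17.8 ± 0.89 FPKM with dexamethasone plus THSG, dexamethasone and vehicle (-0.07 for dexamethasone, 95% interval -0.29 to 0.15).

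Of the serpins 11 were of clade B, which act mostly inside cells. Serpinb6a, an inhibitor of cathepsin G and related proteases, was the most abundant serpin in FPKM, with 379, 347 and 369 FPKM with dexamethasone plus THSG, 359, 378 and 372 FPKM with dexamethasone, and 298, 296 and 296 FPKM with vehicle. All libraries with dexamethasone lay above vehicle, with a log2 fold change of 0.32 (standard error 0.0445, adjusted p = 0.000186). Of 3 genes on the opposite strand whose exons overlap its own, the antisense gene 1110046J04Rik rose (log2 fold change 0.65, adjusted p = 0.00824), while Nqo2 (-0.02, adjusted p = 0.918) and Ripk1 (-0.08, adjusted p = 0.489) were not called. Serpinb1a, an inhibitor of neutrophil elastase, had 85.1, 77.6 and 83.8 FPKM with dexamethasone plus THSG, 79.2, 85.8 and 79.0 FPKM with dexamethasone, and 58.4, 67.9 and 65.3 FPKM with vehicle. It rose by 0.35 (standard error 0.0621, adjusted p = 0.00107) without overlap. Serpinb6b, a paralog of Serpinb6a, had 5.63, 5.004 and 4.98 FPKM with dexamethasone plus THSG, 5.37, 4.77 and 6.21 FPKM with dexamethasone, and 3.15, 3.05 and 3.96 FPKM with vehicle. Its rise was 0.67 on the log2 scale (standard error 0.129, adjusted p = 0.00183), and its vehicle libraries lay below all others.

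Among Serpinb9 and its paralogs, Serpinb9b averaged 3.34 ± 0.28 FPKM with dexamethasone plus THSG, 3.04 ± 0.22 FPKM with dexamethasone and 4.14 ± 0.39 FPKM with vehicle. It fell by a log2 fold change of -0.43 (adjusted p = 0.0128), a call lost without vehicle replicate 3 (-0.36, adjusted p = 0.0547). Serpinb9 averaged 7.01 ± 0.34, 7.09 ± 0.44 and 8.18 ± 0.37 FPKM in the same order of groups and was not called (-0.21, adjusted p = 0.069). Serpinb7 averaged 7.52 ± 1.2, 7.75 ± 1.4 and 9.55 ± 0.73 FPKM and was not called (-0.31, adjusted p = 0.106). Serpinb9g, Serpinb9c, Serpinb6c, Serpinb8 and Serpinb1c had group means between 1.33 and 2.45 FPKM, and log2 fold changes for dexamethasone between -0.43 and 0.31 that were not called. Of the clade B genes all but Serpinb7 and Serpinb8 are on chromosome 13, in 1 cluster, and Serpinb6a to Serpinb6c, Serpinb9 to Serpinb9g and Serpinb1a with Serpinb1c are close paralogs, so values of the low members are uncertain where counting could split or share reads.

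Companion genes of these proteases were read from lists of 21 activators and receptors, 32 other secreted or surface proteases, 26 other protease inhibitors, 33 matrix substrates and 26 ADAM substrates. Their counts stand beside those of all genes, of which 12.7% rose and 20.9% fell with dexamethasone at a median log2 fold change of -0.05. Of the activators and receptors 15 were in the table, and with dexamethasone 3 rose and 8 fell (median log2 fold change -0.15). The genes of both plasminogen activators fell. Plau, urokinase, averaged 25.7 ± 0.34 FPKM with dexamethasone plus THSG, 25.3 ± 1.6 FPKM with dexamethasone and 37.5 ± 1.5 FPKM with vehicle (log2 fold change for dexamethasone -0.57, adjusted p = 1.07e-05). Plat, tissue plasminogen activator, averaged 10.97 ± 0.58, 9.87 ± 0.74 and 16.8 ± 0.68 FPKM (-0.77, adjusted p = 9.6e-06). Lrp1, a receptor that clears protease and inhibitor complexes, fell (-0.61, adjusted p = 7.19e-06). Vldlr, a relative that binds such complexes too, rose (2.05, adjusted p = 1.89e-09).

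Of the other proteases 9 were in the table, with 1 higher and 4 lower. Bmp1, the procollagen C-proteinase, averaged 59.1 ± 0.79 FPKM with dexamethasone plus THSG, 56.4 ± 1.8 FPKM with dexamethasone and 85.5 ± 3.0 FPKM with vehicle (log2 fold change -0.60, adjusted p = 8.86e-07), and Pcolce, its enhancer, fell as well (-0.71, adjusted p = 1.46e-06). Htra3, a secreted serine protease, and Ece1, which processes endothelin, had log2 fold changes of -0.79 and -0.39, and Cpe, a carboxypeptidase of prohormones, rose by 0.50. Of 11 other inhibitors and modulators 4 rose and 5 fell. Cst3, the secreted cathepsin inhibitor cystatin C, rose to 740.0 ± 45 FPKM with dexamethasone and was 808 ± 36 FPKM with dexamethasone plus THSG, against 331 ± 31 FPKM with vehicle (log2 fold change for dexamethasone 1.16, adjusted p = 1.91e-07). Pi15, a secreted protein first described as a trypsin inhibitor, rose by 1.42, and Sparc, a collagen-binding matrix protein, fell by a log2 fold change of -0.48.

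Among 22 matrix substrates 5 rose and 15 fell, and the median log2 fold change was -0.49. The fibrillin gene Fbn1 had a log2 fold change of -1.81, the tenascin gene Tnc -2.46, and the thrombospondin gene Thbs1 -1.19. The basement membrane collagen Col4a1 rose by 1.48. Vcan, the versican cleaved by Adamts1, Adamts4 and Adamts5, averaged 53.3 ± 2.1 FPKM with dexamethasone plus THSG, 54.4 ± 3.5 FPKM with dexamethasone and 57.4 ± 4.2 FPKM with vehicle (-0.07, adjusted p = 0.401), and was singled out after its values were seen. Of 22 ADAM substrates 5 rose and 12 fell. Among them Notch3 stood at -1.52, the syndecan gene Sdc1 at -0.80, the ephrin gene Efnb2 at -0.94 and the interleukin-6 receptor gene Il6ra at 2.36. Cd44, which fell, is counted both here and among the activators and receptors, so those counts share a gene.

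Dexamethasone plus THSG against dexamethasone alone asked whether THSG altered these levels in the presence of the glucocorticoid. No gene of the set passed, nor did any of the 10716 (0% called by limma), and for the 43 genes log2 fold changes lay between -0.20 and 0.38 with a median of 0.02, where the median over all genes was also 0.02. At an unadjusted p under 0.05 there were 3 of 43 genes (7.0%), against 7.25% of all genes, and in 6 of 43 (14.0%) the libraries did not overlap, as in 13.3% of all. The median 95% interval over the set reached 0.18 to either side, and 39 of the 43 intervals lay within -0.5 and 0.5.

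The 3 genes nearest to the threshold included both TIMP genes that dexamethasone lowered. Timp1 was higher in all 3 libraries with THSG (94.6 to 99.4 FPKM) than in the dexamethasone libraries (85.2 to 90.7 FPKM), a log2 fold change of 0.16 (95% interval 0.05 to 0.27, adjusted p = 0.572). Timp3 was lower in all 3 (9.70 to 10.1 against 10.6 to 12.1 FPKM), a log2 fold change of -0.20 (95% interval -0.38 to -0.03, adjusted p = 0.676). Mmp11 was higher in all 3 (42.8 to 44.8 against 38.9 to 41.5 FPKM), at 0.13 (95% interval 0.02 to 0.23, adjusted p = 0.676). None of these differences passed over all genes. Adamts1, at 0.02 (95% interval -0.09 to 0.13), and Adam9, at -0.04 (-0.13 to 0.06), had narrow intervals, whereas Adam8 (-0.20 to 0.82) and Serpinb1c (-0.12 to 0.88) had wide ones.

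**Figure D4:**
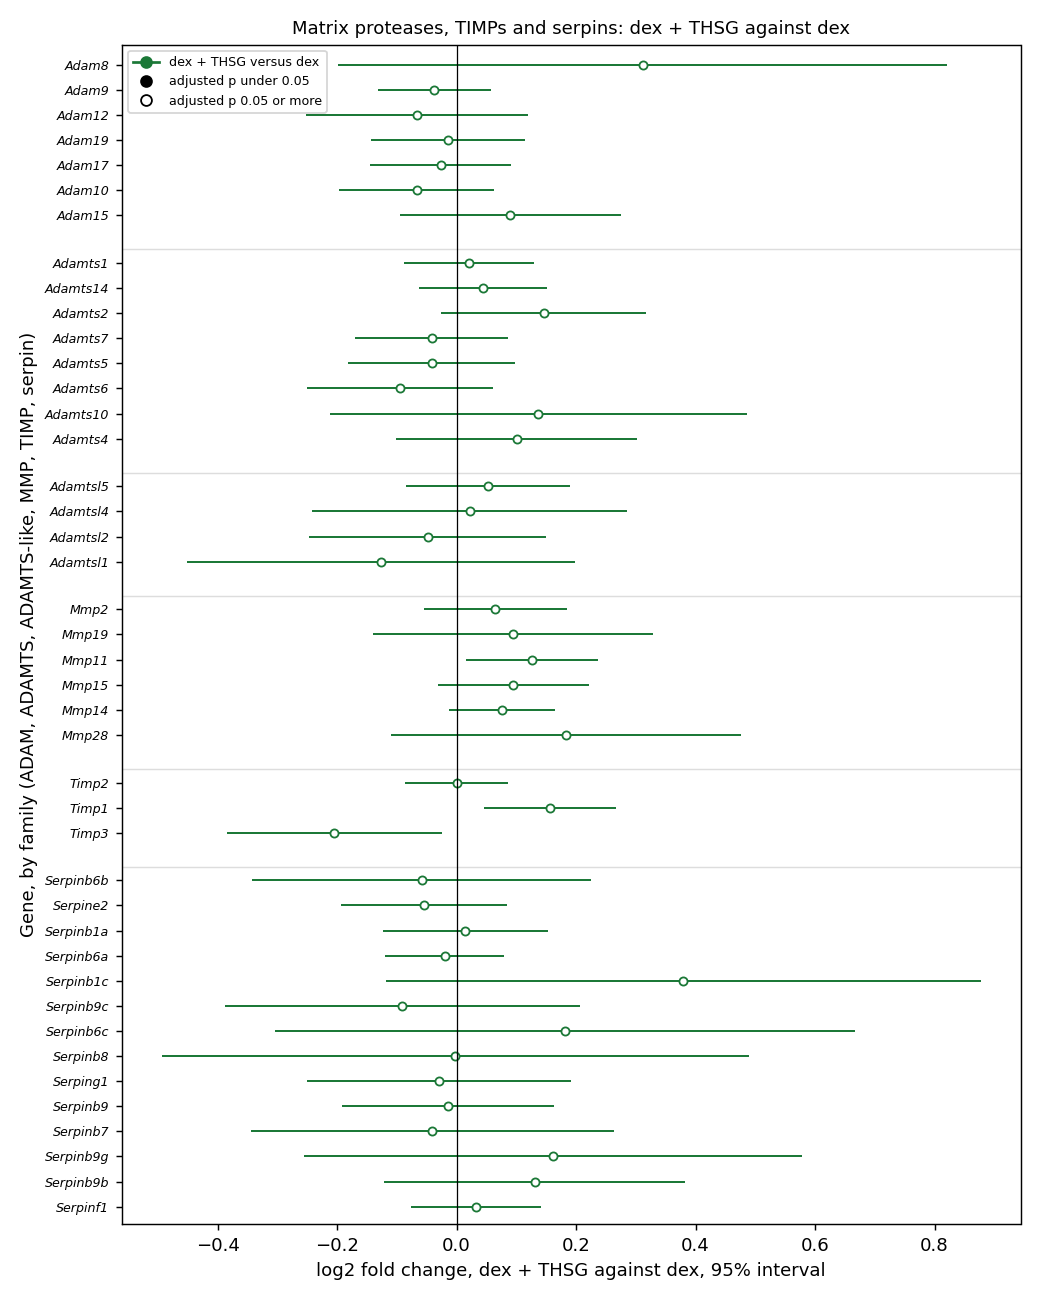
Log2 fold change of 42 of the 43 genes for dexamethasone plus THSG against dexamethasone (points) with 95% intervals; all points are open because no adjusted p was under 0.05. The intervals of Timp1, Timp3 and Mmp11 do not include 0, and those of the low genes Adam8, Serpinb1c, Serpinb6c and Serpinb8 are the widest.

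Dexamethasone plus THSG against vehicle used the same vehicle libraries as dexamethasone against vehicle, so both sets of values are given side by side without a test of their likeness. Of the 43 genes, 26 changed, 15 higher and 11 lower, where 29.1% of all genes changed, 12.1% higher and 17.0% lower. Values were without overlap for 31 of 43 genes, and for 43.1% of all genes. The log2 fold changes with and without THSG were -2.36 and -2.16 for Timp3, -1.61 and -1.72 for Adamts4, -1.39 and -1.54 for Timp1, -1.30 and -1.17 for Adamtsl1, and 1.30 and 1.28 for Adamts1. Mmp15, Mmp28 and Serpinb9b were among the 4 called for dexamethasone alone, and Adamts2, Adamts7, Mmp19 and Serpinb1c were called for dexamethasone plus THSG alone, but none of these genes was called between the groups with dexamethasone, the test that bears on such a difference. For Adamts2 the values were 0.26 and 0.11, for Adamts7 -0.18 and -0.14, for Mmp19 0.33 and 0.23, and for Serpinb1c 0.68 and 0.31. Each of the last 4 calls was lost when certain libraries were left out, with values of 0.21 to 0.27 for Adamts2, -0.18 to -0.15 for Adamts7, 0.21 to 0.33 for Mmp19 and 0.43 to 0.77 for Serpinb1c in those fits. Adamts7 also lost its call with median-ratio scaling, without the intensity trend and with only the 2 groups compared. Mmp19 also lost its call with only the 2 groups compared and with a replicate block.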

How the data were processed

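RNA of 9 C2C12 myotube libraries (3 groups of 3) was sequenced from stranded mRNA libraries made with a TruSeq kit, per the labels' protocols. Alignment with STAR 2.7.10a, counting with featureCounts and the build GRCm39 (mm39) are listed, without order, in the submitters' processing notes. The deposited table is named for counts, but its values are fractional and all above 1. They were taken to be FPKM values made by the authors, an inference from the values that no header or label states. How they were scaled and filtered is not given in the sources used here. Read counts were not recovered from the values.

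In R 4.3.3, limma 3.58.1 was fitted to log2(FPKM + 0.1), with 1 mean per group, an intensity trend, all 9 libraries in 1 fit, and Benjamini-Hochberg adjustment over 10716 genes; intervals are 95%. The fit was tested on simulated data. As alternatives, each library was left out, a replicate block was added, median-ratio scaling or quantile normalization was applied, the pseudocount was set to 0 or 1, genes under a mean of 5 FPKM were dropped, the trend was left out, or the fit was restricted to the 2 groups in question. The members and gene lists were chosen with earlier results of these data known. Library values are given for TIMP genes and the 5 genes of each other family with the smallest p for dexamethasone against vehicle (all where there were at most 5), and up to 4 genes with the smallest p are named per companion list, besides Plau, Vcan and Reck, which were singled out after their values were seen. Cd44 is named only because companion lists share it. Identifiers of all 43 genes matched the GRCm38 annotation, which served for names and neighbours. The values of 1 gene of the set are not reported here, and it is left out of the figures, but it is counted in all sums and counts over the set.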

Additional observations from a re-analysis of the deposited data

How the results depend on the processing

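For dexamethasone against vehicle, 21 of the 26 calls in the set held under every alternative that tested the gene, and the other 5, among them Adam8, Adamts5, Mmp15 and Serpinb9b, lost theirs under at least 1. For dexamethasone plus THSG against vehicle, 22 of 26 held, and Adamts2, Adamts7, Mmp19 and Serpinb1c did not. Calls were also gained under at least 1 alternative. For dexamethasone against vehicle this held for 5 genes, Adam17, Adamts7, Mmp19, Serpinb7 and Serpinb9. For dexamethasone plus THSG against vehicle it held for 4, Mmp28, Serpinb7, Serpinb9 and Serpinb9b. No call changed sign. Leaving out 1 library gave 11 to 12 genes higher and 11 to 14 lower for dexamethasone, and 12 to 13 higher and 10 to 11 lower for dexamethasone plus THSG. Between dexamethasone plus THSG and dexamethasone, no gene of the set was called under any alternative. Over all genes 0 to 1 were called when a library was left out, the 1 being Cks2 without dexamethasone replicate 3 (log2 fold change 0.86, adjusted p = 0.0383), and with the replicate block 1 gene, the pseudogene Rps2-ps10, was called (0.47, adjusted p = 0.0215). Both were named after their values were seen, and the cause was not tested. With the replicate block 12 genes of the set were higher and 15 lower for dexamethasone. Deviations of same-numbered libraries correlated across genes with r between -0.09 and 0.11, and over 0.1 in 1 of 9 pairs. A library's best match in another group had its number in 4 of 18 cases, so the numbers were not taken to pair the libraries. Depth is unknown, and 10 genes of the set averaged under 5 FPKM, where intervals were widest.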

Other observations

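Some rows with similar names or roles lay outside the set. Serpinh1, the collagen chaperone of the endoplasmic reticulum, averaged 183 ± 2.5 FPKM with dexamethasone plus THSG, 172 ± 3.0 FPKM with dexamethasone and 305 ± 13 FPKM with vehicle (SD, n = 3 each). Dexamethasone lowered it (log2 fold change -0.83, standard error 0.0419, limma adjusted p = 4.05e-08). Reck, a membrane-anchored inhibitor of MMPs, averaged 1.35 ± 0.32, 1.34 ± 0.30 and 1.53 ± 0.13 FPKM with dexamethasone plus THSG, dexamethasone and vehicle, and was not called (log2 fold change for dexamethasone -0.19, limma adjusted p = 0.498). Mmp24os1, an RNA from the strand opposite Mmp24, averaged 20.7 ± 0.37, 19.3 ± 0.77 and 19.7 ± 2.4 FPKM in the same order of groups (-0.02, limma adjusted p = 0.849).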
